A study of Mus musculus with 2 samples.

Results

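The serine proteases and inhibitors described here are 10 genes of skin: the tissue kallikreins Klk5, Klk6, Klk7, Klk8, Klk10, Klk11 and Klk13, the membrane protease matriptase (St14), and the inhibitors Spint1 and Spink5. They were chosen by gene symbol from a list of skin protease genes, and each had 1 probe set of its own, giving 10 of the 18193 genes named on the array. Expression was measured in hair follicles isolated from dnFGFR2-IIIb transgenic mice and from wildtype mice, both at postnatal day 10, to find genes downstream of the receptor isoform FGFR2-IIIb. Each genotype was represented by 1 array of the Mouse430_2 design, hybridised with total RNA pooled from about 300 follicles of 3 mice of separate litters. The labels name neither the promoter or cell layer that drives the transgene, nor the strain or any further allele. With 1 array per genotype there was no replicate spread and no test, so that every difference below describes these 2 pools of follicles.

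Tissue kallikreins are secreted serine proteases that leave the cell as inactive zymogens and activate one another by cleavage. In the epidermis and in the follicle canal, several of them cut the corneodesmosomes that hold cornified cells together, so that the cells can be shed. Matriptase, a transmembrane protease of epithelial cells, cleaves other zymogens, the membrane-anchored protease prostasin (Prss8) among them, and mice that lack it have defects of the skin barrier and of hair growth. The pathway is held in check by inhibitors. Spint1 encodes a Kunitz-type inhibitor on the cell surface that binds matriptase, and Spink5 encodes LEKTI, a secreted protein with many Kazal-type domains that inhibits epidermal kallikreins and the loss of which in humans causes Netherton syndrome.

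Transgenic and wild-type follicles gave similar signals for this protease system. All 10 genes lay above the floor of 10.5 units, the 40th percentile of both arrays, on both arrays. Of the 10 genes, 0 passed 2-fold in either direction. Of the 11565 genes on the array with both signals above the floor, 1.6% were 2-fold higher in transgenic follicles and 1.58% 2-fold lower, so that a count of 0 among 10 genes does not set the proteases apart from other genes. At 1.5-fold the count was also 0, against 6.36% of those genes higher and 6.78% lower. The largest ratios of transgenic over wild-type signal were 1.48-fold for both Klk11 and Spint1, and the lowest was 0.95-fold for Klk13. Ratios were above 1 for 9 of 10 genes, against 49.9% of all genes (47.0% among the brightest), and their median log2 ratio was 0.16, against -0.00033 over all genes above the floor on both arrays. That number of genes with a ratio above 1 depended on how the arrays were scaled: it was 6 of 10 with equal medians and 10 of 10 with equal spiked controls. Counted against the median of all genes, 9 of the 10 lay above it with equal trimmed means, no rescaling, equal medians or equal spiked controls. These scalings differ by constant factors, which such a count largely removes, so that their agreement is no separate check. With quantile normalization or loess, which can move genes unequally, 8 of the 10 lay above it.

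**Figure D1:**
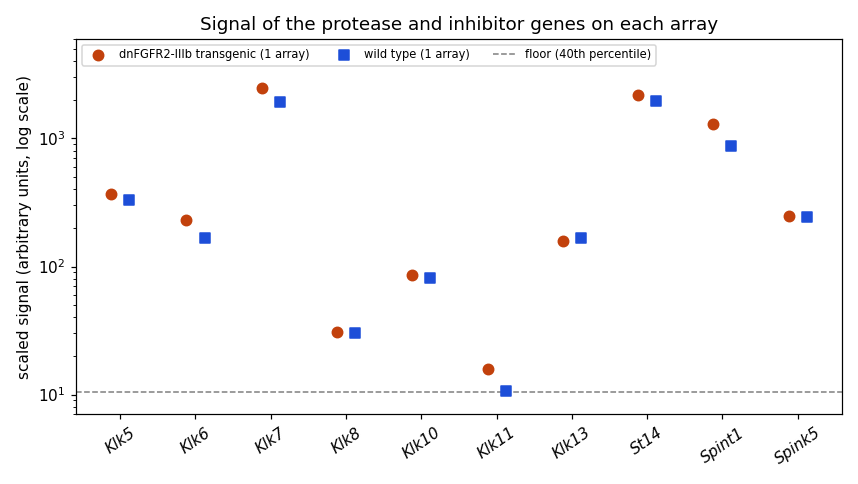
Scaled signal of each gene (arbitrary units, log axis) in transgenic follicles (circles) and wild-type follicles (squares), 1 array each, with the floor as a dashed line. The paired points lie close together for every gene, and Klk11 is near the floor, at 15.8 units in transgenic and 10.7 units in wild-type follicles.

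Before the values are taken gene by gene, the promoters of 3 of the genes are shown, because they stand for the range of the ratios: Spint1 and Klk7 differed by more than the technical spread defined below, whereas Klk8 was nearly equal on both arrays. Promoter sequences from RefSeq (build GRCm38.p6) were matched for 8 of the 10 genes, all except St14 and Spink5, in 10 sequences, since Klk6 and Klk11 each have more than one start site there. Each runs from 250 bases before the start site to 50 bases after it. The windows shown are chr2:119237110-119237409 for Spint1, chr7:43811044-43811343 for Klk7 and chr7:43797327-43797626 for Klk8, all on the plus strand and written 5′ to 3′. Capitals mark matches, on either strand, to the AP-1 motif TGANTCA, to the ETS motif GGAAGT or to the TATA box TATAAA. AP-1 and ETS factors are known targets of signalling from fibroblast growth factor receptors.
Spint1: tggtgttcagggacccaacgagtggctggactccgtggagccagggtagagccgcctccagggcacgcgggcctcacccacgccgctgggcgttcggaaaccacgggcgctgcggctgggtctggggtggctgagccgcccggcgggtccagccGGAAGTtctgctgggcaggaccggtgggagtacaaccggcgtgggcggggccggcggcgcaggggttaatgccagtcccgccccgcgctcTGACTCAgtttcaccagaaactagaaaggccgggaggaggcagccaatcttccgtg
Klk7: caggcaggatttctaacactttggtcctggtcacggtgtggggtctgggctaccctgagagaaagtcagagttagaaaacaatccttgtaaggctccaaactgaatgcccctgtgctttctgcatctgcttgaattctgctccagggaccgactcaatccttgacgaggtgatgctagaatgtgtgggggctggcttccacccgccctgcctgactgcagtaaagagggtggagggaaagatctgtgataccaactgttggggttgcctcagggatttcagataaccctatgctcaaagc
Klk8: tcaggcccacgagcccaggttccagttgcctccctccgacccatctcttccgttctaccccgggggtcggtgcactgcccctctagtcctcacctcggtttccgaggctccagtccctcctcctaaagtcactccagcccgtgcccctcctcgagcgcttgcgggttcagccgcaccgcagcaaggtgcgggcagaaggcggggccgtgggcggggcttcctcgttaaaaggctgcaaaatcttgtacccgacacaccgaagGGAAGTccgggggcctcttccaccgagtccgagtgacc

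The Spint1 window held an AP-1 match that starts 6 bases before the start site and an ETS match that starts 96 bases before it. The Klk7 window held none of these letters, and the Klk8 window held 1 ETS match, placed after the start site. No matches overlapped. Over all 10 promoter sequences of these genes, 1 held the AP-1 motif, 3 held the ETS motif (those of Spint1 and Klk8 and one of Klk6) and 0 held the TATA box. Among all 32851 promoter sequences of this length, 7.81% held the AP-1 motif, 23.8% the ETS motif and 13.6% the TATA box. These matches describe the letters and are not evidence of binding.

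Because each gene had 1 probe set, the spread of its ratio could not be taken from a second probe set of the same gene. It was taken instead from other genes measured by several probe sets: within a gene, log2 ratios had a pooled SD of 0.52 in the dimmest tertile of genes, 0.29 in the middle tertile and 0.17 in the brightest. Of the 10 genes, 5 were in the bright tertile (Klk5, Klk7, St14, Spint1 and Spink5), 3 in the middle (Klk6, Klk10 and Klk13) and 2 in the dim tertile (Klk8 and Klk11). This spread, called technical here, is between probe sets on the same 2 arrays. It leaves out error that the probe sets of a gene share on an array, and it can include differences between transcripts of a gene. It holds nothing of the variation from mouse to mouse, since the follicles were pooled. With equal trimmed means, the scaling used unless another is named, ratios of 6 of the 10 genes were within 1 SD of equality. The other 4 were beyond it, and 2 of those 4, Spint1 and Klk7, were beyond 2 SD.

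Among the kallikreins known from the mouse and human epidermis as targets of LEKTI are Klk5 and Klk7. Klk5 is a trypsin-like protease that can activate itself and other kallikreins, and Klk7 is a chymotrypsin-like protease that cuts corneodesmosin and desmocollin. Klk5 read 367 units in transgenic follicles and 329 units in wild-type follicles, a log2 ratio of 0.16 with a range of -0.18 to 0.50 at 2 SD. Klk7 read 2459 units in transgenic follicles and 1940.1 units in wild-type follicles, a 1.27-fold ratio. Its log2 ratio of 0.34 had a range of 0.00065 to 0.68 at 2 SD, so that it barely cleared equality, and 6.3% of the genes in the bright tertile had a ratio as high. Both proteases read higher in the transgenic pool by less than 1.5-fold, and of this pair the difference exceeded 2 SD for Klk7 alone. That call depended on the scaling: with equal medians the log2 ratio of Klk7 was 0.20, under 2 SD, and with equal spiked controls that of Klk5 was 0.35, over 2 SD.

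Klk6 and Klk8 are trypsin-like kallikreins known from the nervous system and also made in skin. Klk6 read 230.5 units in transgenic follicles and 167 units in wild-type follicles, a 1.38-fold ratio and a log2 ratio of 0.47. In the middle tertile of brightness, 7.26% of genes had a ratio as high, and its range at 2 SD, -0.12 to 1.06, includes equality and passes 2-fold. Klk8 read 31.0 units in transgenic follicles and 30.0 units in wild-type follicles, a log2 ratio of 0.05. The 2 arrays were alike for Klk8, but as a dim gene it had the wide range of -0.99 to 1.08, so that a 2-fold difference between the pools would lie within its technical spread.

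The remaining kallikreins, Klk10, Klk11 and Klk13, are expressed in stratified epithelia. Klk10 read 85.8 units in transgenic follicles and 80.8 units in wild-type follicles, a log2 ratio of 0.09. Klk13 read 159.6 units in transgenic follicles and 168 units in wild-type follicles, a log2 ratio of -0.07, the only one of the 10 below 0, which became 0.12 with equal spiked controls. Klk11 read 15.8 units in transgenic follicles and 10.7 units in wild-type follicles. The ratio of 1.48-fold for Klk11 therefore rests on signals at the floor: 27 control probe sets for Bacillus subtilis genes read up to 15.8 units on the transgenic and 8.50 units on the wild-type array, and 15.3% of genes in the dim tertile had a ratio as high.

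**Figure D2:**
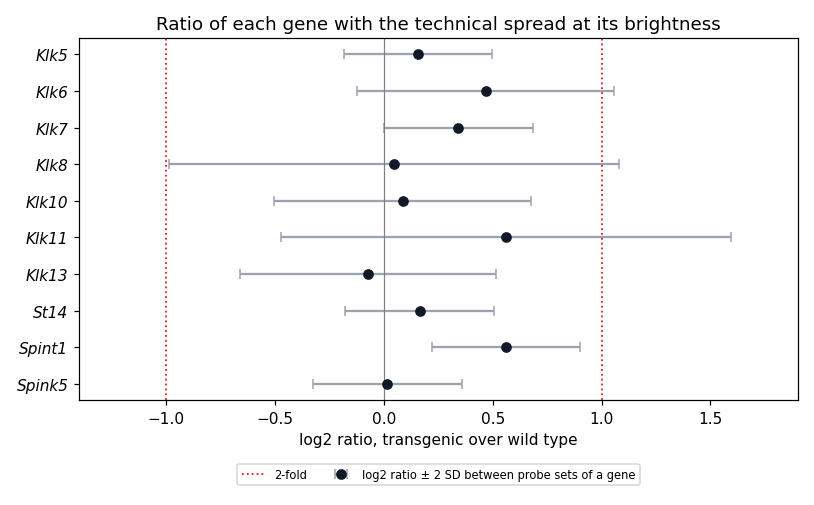
Log2 ratio of transgenic over wild-type signal for each gene (points), with bars of 2 SD between probe sets of a gene at that gene's brightness, and dotted lines at 2-fold. The bars of 7 genes stay within 2-fold, those of Klk6, Klk8 and Klk11 reach past it, and only those of Spint1 and Klk7 do not cross 0.

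St14, which encodes matriptase, read 2188 units in transgenic follicles and 1952 units in wild-type follicles. Its log2 ratio was 0.16, with a range of -0.18 to 0.51 at 2 SD. With equal trimmed means the arrays were thus within 1 SD of one another for this protease. That depended on the scaling: the log2 ratio of St14 was 0.02 with equal medians, but 0.20 with quantile normalization or loess, beyond 1 SD. With equal spiked controls it was 0.36, beyond 2 SD. Prss8, the prostasin gene, which was chosen after its values were seen, read 413 units in transgenic follicles and 347 units in wild-type follicles, a log2 ratio of 0.25.

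The inhibitor of matriptase, Spint1, showed the clearest difference of the 10 genes. It read 1289 units in transgenic follicles and 874 units in wild-type follicles, a 1.48-fold ratio and a log2 ratio of 0.56. The range at 2 SD was 0.22 to 0.90, the difference was 3.29 times the SD, and 1.32% of genes in the bright tertile had a ratio as high. Among genes of that brightness, 0.233% were 2-fold higher and 0.441% 2-fold lower, and Spint1 was not among them. Spint2, which encodes the related Kunitz inhibitor of matriptase and prostasin and was chosen after its values were seen, read 1166 units in transgenic follicles and 1134 units in wild-type follicles at its brighter probe set. At the other probe set of Spint2 the log2 ratio was -0.11, so that its probe sets lay on both sides of equality.

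Spink5, the LEKTI gene, was the closest of the 10 to equality with equal trimmed means, though not with equal medians (Klk5) or equal spiked controls (Klk13). It read 247 units in transgenic follicles and 244 units in wild-type follicles, a 1.01-fold ratio, with a log2 range of -0.33 to 0.36 at 2 SD. This range stays within 2-fold in both directions, and it covers the spread between probe sets alone, not error shared on an array or the spread between mice.

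**Figure D3:**
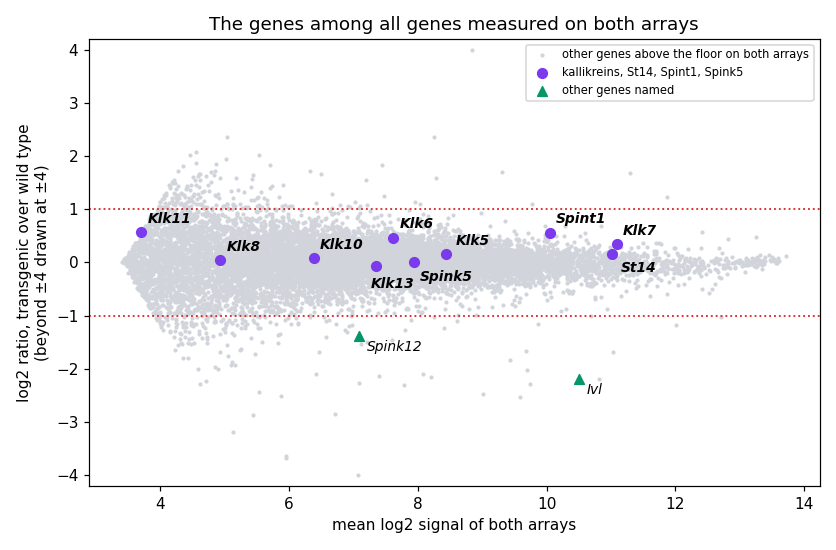
Log2 ratio of transgenic over wild-type signal against mean log2 signal for genes above the floor on both arrays (grey), with the 10 protease and inhibitor genes in purple and dotted lines at 2-fold. The 10 genes lie inside the dotted lines, while Spink12 and Ivl (green) lie below them, at log2 ratios of -1.38 and -2.19.

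The kallikrein genes lie next to one another in a single cluster on mouse chromosome 7, and the 7 measured here come from one side of it. In the gene order of GRCm38.p6, which was used only for neighbourhood, the cluster holds 26 kallikrein genes without its pseudogenes, and 19 of them had a probe set that names no other gene. Of the 9 genes from Klk13 to Klk5, 7 were above the floor on both arrays. The exceptions were Klk12, at 2.30 units in transgenic and 6.50 units in wild-type follicles, and Klk9, at 3.60 units in transgenic and 17.5 units in wild-type follicles. Klk9 was thus at least 1.67-fold lower in the transgenic pool, with the wild-type signal close to the floor. On the other side of the cluster, Klk4 and all 8 measured Klk1b genes, the close relatives of the glandular kallikrein Klk1, were under the floor on both arrays, the Klk1b genes with at most 8.20 units in transgenic and 9.40 units in wild-type follicles. Klk1 itself read 79.7 units in transgenic follicles and 55.2 units in wild-type follicles at its brightest probe set, a log2 ratio of 0.53. That probe set can match several transcripts. The other probe sets of Klk1 were under the floor on both arrays, with at most 2.40 units in transgenic and 8.20 units in wild-type follicles. This disagreement makes the value of Klk1 uncertain, and a share of other transcripts in it was not tested. Klk14 and Klk15 were not analysed here.

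**Figure D4:**
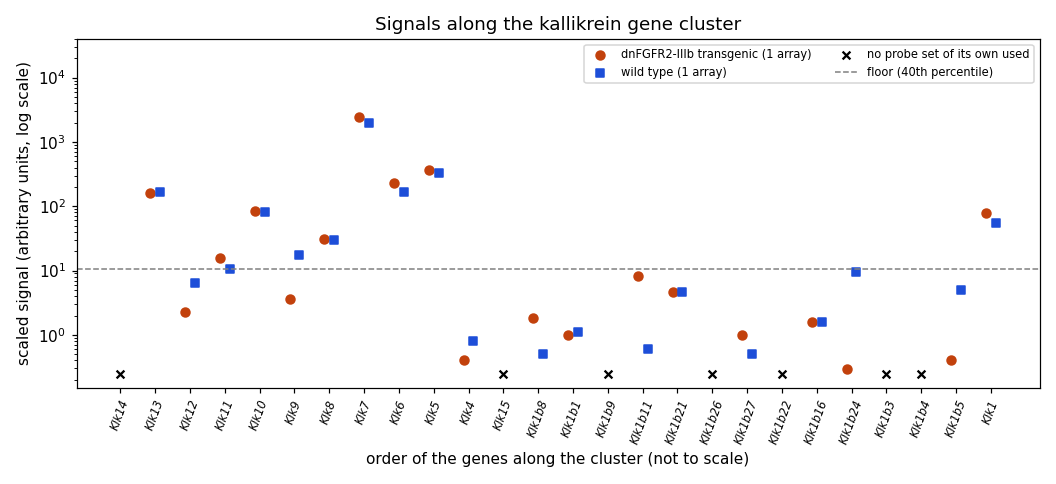
Scaled signal (arbitrary units, log axis) of the 26 kallikrein genes in their order along the cluster, in transgenic (circles) and wild-type follicles (squares), 1 array each, with crosses for genes without a probe set of their own and the floor as a dashed line. Each gene is drawn at its brightest probe set. Signals above the floor on both arrays come from Klk13 to Klk5 and from the brightest probe set of Klk1, whose other probe sets were under the floor.

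The further proteases, inhibitors and substrates of the pathway were followed in 4 lists, each read beside the 51.3% of all genes above the floor on at least 1 array that had a ratio above 1 and their median log2 ratio of 0.01. Of 19 other kallikreins, 12 were measured and 2, the Klk9 and Klk1 described above, exceeded the floor on at least 1 array. Of 19 other membrane-bound serine proteases, 17 were measured and 14 exceeded the floor on at least 1 array, 9 with a ratio above 1 and a median log2 ratio of 0.14. With both signals above the floor, 0 of them were 2-fold higher and 0 were 2-fold lower. Prss27, a trypsin-like protease also called marapsin, was at least 2.15-fold lower in the transgenic pool, at 2.50 units there and 22.6 units in wild-type follicles. The next in size, Hpn, Tmprss5 and Tmprss4, had bounds under 2-fold and signals of at most 16.3 units on either array.

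Among 32 other Kunitz, Kazal and whey acidic protein inhibitors, 21 were measured and 17 exceeded the floor on at least 1 array, 8 of them with a ratio above 1, and the median log2 ratio was -0.16. Of the 9 with both signals above the floor, 1 was 2-fold higher and 1 was 2-fold lower, against 1.6% and 1.58% of all genes. The lower one was Spink12, named as a Kazal-type inhibitor like Spink5, which read 84.1 units in transgenic follicles and 219 units in wild-type follicles and was 2.60-fold lower. Wfdc17, of the whey acidic protein family, read 30.5 units in transgenic follicles and 14.2 units in wild-type follicles, a 2.15-fold ratio between dim signals that fell short of 2-fold with equal medians, quantile normalization or loess. Spink2, a Kazal-type inhibitor known from the testis, read 50.3 units in transgenic follicles and was under the floor at 8.50 units in wild-type follicles, at least 4.79-fold higher. Wfdc15b was at least 1.60-fold lower, being under the floor in transgenic follicles and at 16.8 units in wild-type follicles.

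Proteins known to be cut or activated by these proteases were, as a list, centred on equality. Of 22 genes, 18 were measured and 14 exceeded the floor on at least 1 array, 7 with a ratio above 1 and 7 below, with a median log2 ratio of -0.00027, and 0 were 2-fold apart in either direction. The largest differences were in Cdcp1, a membrane glycoprotein cleaved by matriptase, which read 262 units in transgenic follicles and 388 units in wild-type follicles (log2 ratio -0.57), and in Casp14, a caspase of the cornifying epidermis, at 65.7 units in transgenic and 45.7 units in wild-type follicles (0.52, and 0.63 at its other probe set). Camp, the cathelicidin gene, read 14.9 units in transgenic follicles and was under the floor in wild-type follicles. Cdsn, which encodes the corneodesmosin that Klk5 and Klk7 degrade, read 1405 units in transgenic follicles and 1902 units in wild-type follicles, a log2 ratio of -0.44. Dsg1a, a desmosomal cadherin degraded when LEKTI is missing in mice, was chosen after its values were seen and read 1177 units in transgenic follicles and 899 units in wild-type follicles, a log2 ratio of 0.39. Among the substrates with both signals above the floor, ratios thus lay on both sides of 1 and within 2-fold. Centring on equality describes the list and not each substrate. With equal trimmed means and the SD of 0.17 for the bright tertile, Cdcp1 and Cdsn were lower and Dsg1a was higher by more than 2 SD.

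Hair shaft and inner root sheath keratins were bright on both arrays, which fits the tissue on the labels: the 6 measured hair shaft markers summed to 57875 units in transgenic and 55396 units in wild-type follicles, and the 8 inner root sheath markers to 57674 and 58420 units, in the same order. Markers of the granular and suprabasal epidermis, where these proteases are known to act, were partly absent: Krt1, Krt2 and Flg, 3 of the 12 markers, were under the floor on both arrays. Of the 9 others, 6 had a ratio above 1 and the median log2 ratio was 0.52. With both signals above the floor, 1 marker was 2-fold higher and 1 was 2-fold lower, against 1.6% and 1.58% of all genes. The higher one was Krt77, at 63.8 units in transgenic and 16.6 units in wild-type follicles (log2 ratio 1.94). Smaller ratios above 1 included Krt10 at 225 units in transgenic and 149.8 units in wild-type follicles (log2 ratio 0.59) and Lor at 130.1 and 78.6 units in the same order (0.73). The summed signal of the 12 was nevertheless lower in the transgenic pool, 5238 units against 7968 units in wild-type follicles. Most of this gap came from Ivl, the involucrin gene, which read 683 units in transgenic and 3110 units in wild-type follicles. Sbsn was also lower at its brightest probe set, at 3774 units in transgenic and 4349 units in wild-type follicles. Its log2 ratios were -0.20 there and -0.03 and 0.26 at its other probe sets. All 8 markers of the companion layer and outer root sheath had ratios below 1, with a median log2 ratio of -0.42 and sums of 17698 units in transgenic and 21253 units in wild-type follicles. Median log2 ratios were 0.19 over the 8 markers of dermal papilla and fibroblasts, -0.14 over the 5 of melanocytes and -0.04 over the 5 measured of the sebaceous gland. Krt77 was also listed among 3 markers of eccrine gland and duct. Of these, Krt19 went the other way, at 37.4 units in transgenic and 83.2 units in wild-type follicles, and Aqp5 had a log2 ratio of 0.16. Of 9 immune markers, 6 exceeded the floor on at least 1 array, with a median of 0.88 and sums over all 9 of 195 units in transgenic and 107 units in wild-type follicles. All 6 had ratios above 1, but they read at most 42.4 units. The median of 0.88 rests on bounds, and it was 0.60 over the 3 with both signals above the floor. H2-Ab1, the brightest in wild-type follicles, had log2 ratios of 0.02 at its brightest probe set and -0.26 and -0.40 at the others. Pools that differ in cell types and pools that differ in RNA per cell cannot be told apart in such data, and the part of these markers in the ratios of the protease genes was not tested.

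The pools also differed in sex-linked RNA. The 3 Y-linked genes measured were under the floor at their brightest probe set in the transgenic pool and above it in the wild-type pool. A dimmer probe set of Kdm5d, 1 of the 3, went the other way, at 17.1 units in transgenic and 6.10 units in wild-type follicles. Xist read 1146 units in transgenic and 352 units in wild-type follicles, a 3.25-fold ratio, so that the wild-type pool held both Y-linked RNA and Xist. The sex of the mice and the genotype thus cannot be told apart. The arrays ran on the same fluidics station in different modules, and module and genotype cannot be told apart either.

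Constant rescalings of the arrays moved the ratios of the genes by the same amount, except for Klk11. With signals near the floor, Klk11 moved less than the others with equal spiked controls, from a log2 ratio of 0.56 to 0.68. Quantile normalization and loess moved the ratios unequally, some up and some down. With equal medians, which placed the median of all genes at -0.14 on the log2 scale, Spint1 had a log2 ratio of 0.42. With equal spiked controls, which placed that median at 0.19, it had 0.75. Most of the settings could hardly move a gene relative to the median of all genes. Other floors and probe set choices left the ratio of a bright gene as it was, and constant rescalings shift the median with it. The narrow ranges that follow were thus largely built in. Relative to the median of all genes, Spint1 lay between 0.54 and 0.62 over 12 settings and Klk7 between 0.32 and 0.41. Klk6 lay between 0.44 and 0.47, and Spink5 between -0.0024 and 0.03. Klk11 had the widest range of the 10 genes, 0.31 to 0.56 over 10 settings. Klk10 lay between 0.06 and 0.09 and Klk13 between -0.09 and -0.07 relative to that median, so that their signs changed only where all genes were shifted. Klk8, between -0.05 and 0.05, and Spink5 lay on both sides of the median.

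**Figure D5:**
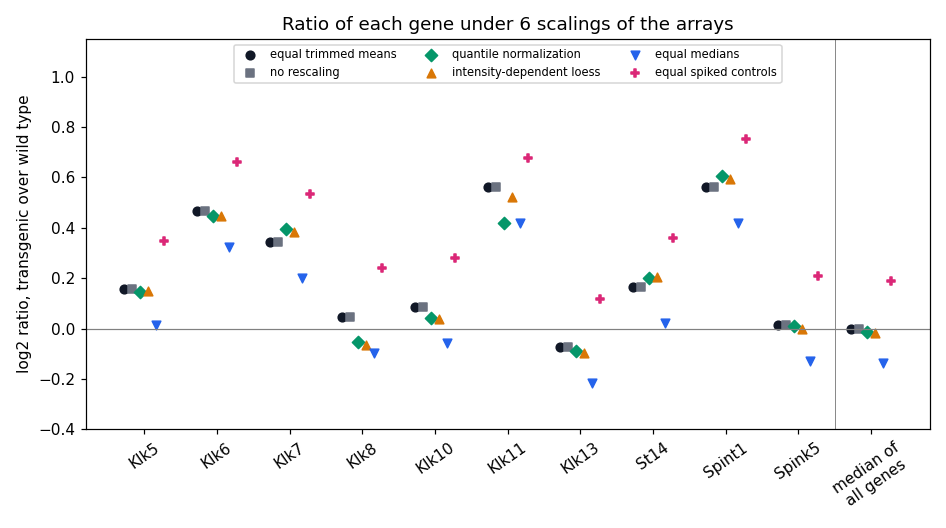
Log2 ratio of transgenic over wild-type signal for each gene under 6 scalings, and at the right the median of all genes above the floor under each. Equal medians and equal spiked controls move the genes down and up together with the median of all genes, Klk11 less than the others with equal spiked controls. Quantile normalization and loess move them unequally, and Spint1, Klk6, Klk7, Klk11, Klk5 and St14 stay above 0 under all 6.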

How the data were processed

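RNA of 1 pool of dnFGFR2-IIIb transgenic and 1 pool of wild-type hair follicles was measured on Affymetrix Mouse430_2 arrays. The authors deposited 1 linear intensity per probe set, already brought to a 2% trimmed mean of 100 per array (computed from the table); the summary of probes to a signal was not given in the sources used. The 64 control probe sets were set aside, and 34945 of the other 45037 named 1 gene, 34741 of which matched the RefSeq table of GRCm38.p6. Arrays were rescaled to equal trimmed means over the 45037, values under the 40th percentile (10.5) were set to it, and each gene took its brightest probe set. A gene counted as higher or lower at 2-fold with both signals above this floor; otherwise the ratio to the floor is a bound ("at least"). With so few arrays the precision is low. The step was tested on simulated data. Python 3.11.15, pandas 2.3.3 and scipy 1.17.1 were used.

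Named genes were the 10 genes and, per list, the 4 with the largest absolute log2 ratio and any 2-fold apart. Genes, lists and alternatives were chosen with earlier results of these data known. Alternatives were 5 scalings, other floors, a pseudocount, other probe set choices and thresholds of 1.5-fold and 3-fold.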

Additional observations from a re-analysis of the deposited data

How the results depend on the processing

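The count of 0 higher and 0 lower among the 10 genes held under all 14 alternatives, and 102 of 107 recomputed ratios of these genes moved by less than the technical SD. The 5 that moved further did so with equal spiked controls, where log2 ratios were 0.35 for Klk5, 0.54 for Klk7, 0.36 for St14, 0.75 for Spint1 and 0.21 for Spink5, beside a median of 0.19 over all genes. Many of the 107 ratios could not move, so these totals say little of stability. Each gene had 1 probe set, kept under every probe set choice, and floors below both signals of a gene left its ratio as it was. Omitting the rescaling hardly changed the arrays, and a count of 0 at 2-fold fixes a count of 0 at 3-fold. Klk8 and Klk11 had no value with a floor of 50, nor Klk11 at the 60th percentile.

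The counts over all genes (185 higher, 183 lower) moved to 115 and 296 with equal medians, 314 and 103 with equal spiked controls, 845 and 685 with the floor at the 20th percentile, 50 and 61 at the 60th, 22 and 37 with a floor of 50, 53 and 76 with a pseudocount, 735 and 784 at 1.5-fold, 27 and 40 at 3-fold, and 443 and 326 when probe sets were counted. With the mean over probe sets they were 103 and 128. Quantile normalization gave 140 and 231, and loess 131 and 239.

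In the inhibitor list the count of higher genes was 0 with equal medians, quantile normalization, loess, the floor at the 60th percentile, a floor of 50, a pseudocount or 3-fold, 5 with the floor at the 20th percentile and 2 at 1.5-fold. Its lower count was 2 with the floor at the 20th percentile or at 1.5-fold, and 0 at 3-fold. With the floor at the 20th percentile, 1 other kallikrein was lower, and 2 membrane-bound proteases and 2 substrates were higher. The median log2 ratio of the other kallikreins, which rested on 2 genes with the floor at the 40th percentile and on other numbers of genes elsewhere, was -0.84 with the floor at the 20th percentile, 0.53 at the 60th percentile or with a floor of 50, and -0.74 without probe sets that match several transcripts. The cause of these moves was not tested beyond the number of genes above each floor. No paired analysis was possible because each genotype has 1 array. Dim signals limit what can be said of Klk8 and Klk11.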
